A study of Mus musculus with 2 samples.

Results

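The 10 genes described here are negative regulators of the ERK branch of MAPK signalling, namely Spry1, Spry2, Spry4, Spred1, Spred2, Dusp1, Dusp4, Dusp5 and Dusp6, together with Ier3, an immediate-early gene that is often induced beside them. The set was chosen by the measured difference between the 2 libraries as well as by function, so the differences below are a description and were not tested. The genes cover 14 of the 33299 transcript rows and 10 of the 23183 gene symbols. RNA was sequenced from cultured primary mouse cavernous endothelial cells (MCECs), grown out of corpus cavernosum of male C57BL/6J mice (8 weeks old) and used at passages 2 to 4, as 1 library of cells given HEPES-buffered saline (HG+HBS) and 1 library of cells given pericyte-derived extracellular vesicle-mimetic nanovesicles (HG+PC-NVs). Both cultures were in high glucose (HG, 30 mM), and whether cells of several mice were pooled is not stated. PC-NVs, which are made by pressing cultured cavernous pericytes through membranes, were given at 1 µg/mL. The methods place RNA isolation 72 hours after glucose and 24 hours after PC-NVs, whereas the labels state 5 days of glucose. A figure legend of the paper gives a longer time for the treatment with PC-NVs or HBS, so the time with PC-NVs is not settled. The labels give 20% serum in the medium of both cultures. The methods list 5 ng/mL VEGF, itself a ligand that activates ERK, in the medium used to grow MCECs. Whether VEGF was present during the treatment is not stated. The methods also starve cells of serum for 24 hours before the glucose condition.

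Growth factors bound to receptor tyrosine kinases activate Ras, RAF, MEK and ERK in turn. ERK then induces its own brakes. Sprouty proteins act between the receptor and RAF, Spred proteins recruit neurofibromin to Ras, and dual specificity phosphatases (Dusp) remove the activating phosphates from ERK, p38 or JNK. In endothelial cells Sprouty and Spred proteins restrain sprouting driven by VEGF and FGF. Because ERK induces several of these genes, their RNA is often used as a readout of the pathway, although other pathways also act on them.

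The values are normalized FPKM, a level scaled for transcript length and library size, obtained from the deposited log2(value + 1) by summing the rows of a gene. Low values of long single-transcript genes rise in steps that place the libraries at about 13300000 fragments (HG+HBS) and 11700000 fragments (HG+PC-NVs). Folds with an interval are ratios of FPKM with no pseudocount, whereas log2 ratios, ranks and the 2-fold threshold are on the log2(value + 1) scale. Intervals given below are exact binomial 95% intervals on approximate fragment counts and cover counting error only. With 1 library per condition no difference could be set against the spread between cultures, and no p-value was computed. In bulk RNA, fewer cells that express a gene and less of its RNA per cell cannot be told apart. The paper assumed that PC-NVs carry and transfer the genes it singled out. Any RNA brought in by PC-NVs cannot be told apart from RNA made by the treated cells, and this was not tested. Of 14 endothelial markers, 9 were below 1 FPKM in both libraries (Kdr, Tek, Tie1, Vwf, Emcn, Erg, Cldn5, Robo4 and Nos3), and the highest was Eng, at 29.0 FPKM with HBS and 21.4 FPKM with PC-NVs. Of 10 fibroblast markers, the highest was Dcn, at 623 and 1283 FPKM, and the other 9 were lower with PC-NVs. The labelled endothelial identity therefore rests on few of its defining markers in these libraries.

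The promoters of 4 genes are shown first, those of the 3 genes that differed by at least 2-fold and that of Dusp5, which held the most motif matches. RefSeq windows on GRCm38.p6, from 250 bases before to 50 bases after the annotated start, were found for 8 of the 10 genes, all but Spry4 and Dusp4. They are printed 5′ to 3′ on the gene's strand, with capitals for exact matches on either strand to 6 motifs. These were the CRE bound by CREB and ATF proteins (TGACGTCA), the AP-1 site (TGANTCA), an ETS site (CCGGAAGT), the E-box (CACGTG), an NF-kB site (GGGNNTTCC) and the CArG box bound by SRF.
Ier3, chr17:35821463-35821762, + strand: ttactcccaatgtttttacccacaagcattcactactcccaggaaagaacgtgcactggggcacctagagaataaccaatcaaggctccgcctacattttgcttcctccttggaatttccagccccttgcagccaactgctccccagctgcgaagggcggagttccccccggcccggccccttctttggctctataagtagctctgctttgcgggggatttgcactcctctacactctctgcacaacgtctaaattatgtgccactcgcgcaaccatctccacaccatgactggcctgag
Dusp1, chr17:26508423-26508722, - strand: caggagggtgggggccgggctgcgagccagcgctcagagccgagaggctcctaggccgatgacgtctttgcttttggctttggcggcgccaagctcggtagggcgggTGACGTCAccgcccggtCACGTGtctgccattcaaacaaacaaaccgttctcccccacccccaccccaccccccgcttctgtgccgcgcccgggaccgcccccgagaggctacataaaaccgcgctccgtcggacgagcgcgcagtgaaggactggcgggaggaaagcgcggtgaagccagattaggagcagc
Spry1, chr3:37639697-37639996, + strand: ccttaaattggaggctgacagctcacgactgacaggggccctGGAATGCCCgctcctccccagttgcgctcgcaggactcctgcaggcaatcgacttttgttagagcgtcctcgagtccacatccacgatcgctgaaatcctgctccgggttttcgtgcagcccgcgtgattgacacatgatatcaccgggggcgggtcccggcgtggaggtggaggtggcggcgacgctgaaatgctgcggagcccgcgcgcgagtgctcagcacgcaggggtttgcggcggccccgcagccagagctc
Dusp5, chr19:53528895-53529194, + strand: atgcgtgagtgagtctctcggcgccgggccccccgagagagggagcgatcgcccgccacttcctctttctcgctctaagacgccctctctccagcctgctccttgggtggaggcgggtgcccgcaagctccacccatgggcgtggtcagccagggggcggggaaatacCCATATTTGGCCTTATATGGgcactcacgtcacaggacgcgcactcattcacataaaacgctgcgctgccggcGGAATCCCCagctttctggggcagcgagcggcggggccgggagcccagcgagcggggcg

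The Dusp1 window held a CRE that begins at base 108 and an E-box at base 125. The Dusp5 window held CArG boxes at bases 169 and 179, which abut, and an NF-kB match at base 242. The Spry1 window held an NF-kB match at base 43, and the Ier3 window matched none of the 6 motifs as spelled. The matches of the 4 printed windows do not overlap each other, and the windows of the other 4 genes matched none. Of 32843 windows of other genes, 1.79% held the CRE, 7.81% the AP-1 site, 3.89% the ETS site, 7.15% the E-box, 5.82% the NF-kB site and 1.63% a CArG box. A match here describes letters only.

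All 5 Sprouty and Spred genes were lower in HG+PC-NVs, with Spry1 at least 2-fold lower. The 4 Dusp genes were split, with Dusp1 at least 2-fold higher, Dusp6 slightly higher, and Dusp4 and Dusp5 lower, with log2 ratios of -0.27 and -0.49 beside -0.32 for Spry2, -0.33 for Spred2 and -0.48 for Spred1. Ier3 was at least 2-fold higher. All 10 genes passed the filter of a mean log2 value of at least 1, which kept 11785 genes. Of the 10, 2 were at least 2-fold higher and 1 at least 2-fold lower on the log2(value + 1) scale. Over all genes kept, 3.18% differed by at least 2-fold, 2.38% higher and 0.798% lower. With a 1.5-fold threshold the counts were 2 higher and 2 lower, beside 5.33% and 3.57% of all genes. A log2 ratio below 0 was found for 7 of the 10, beside 51.6% of all genes. The median log2 ratio of the 10 was -0.32, and that of all genes kept was -0.01. Since the same contrast served to choose the genes, nothing is read from these shares.

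**Figure D1:**
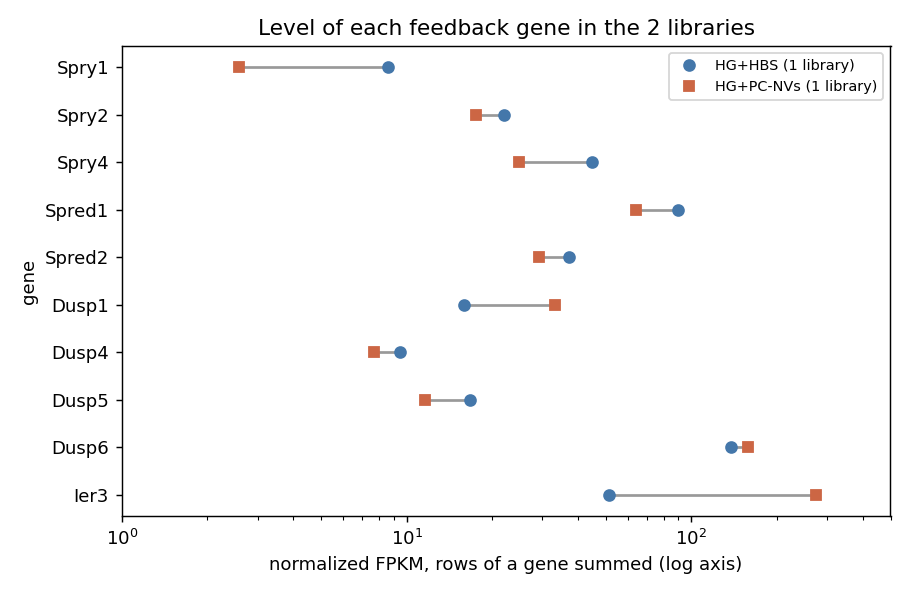
Normalized FPKM of the 10 genes on a log axis, with 1 circle for the HG+HBS library and 1 square for the HG+PC-NVs library, joined by a line. Squares lie left of circles for the 5 Sprouty and Spred genes, and Ier3 has the longest line to the right, from 51.5 to 274 FPKM.

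Spry1, a membrane-associated inhibitor of FGF and VEGF signalling, was the lowest of the 10 in both libraries, at 8.61 FPKM with HBS and 2.58 FPKM with PC-NVs. The ratio of these FPKM was 3.34-fold lower with PC-NVs (interval 2.62 to 4.32, from about 318 and 83 fragments). On the log2(value + 1) scale, which understates the differences of low genes, the log2 ratio was -1.43, or 2.69-fold. It ranked 29 from the lowest ratio among the 11785 genes. Spry1 has 4 rows in the files, which do not name the transcripts. The first row stood at 4.83 FPKM with HBS and 1.28 FPKM with PC-NVs, and the last at 3.16 FPKM and 0 FPKM. The second row went the other way, from 0.00258 to 1.30 FPKM. The third stood at 0.618 and 0.00215 FPKM. The lower total was thus carried by the first and last rows, while the division of reads among the rows differed between the libraries. An annotated gene on the opposite strand, Gm42922, shares up to 1117 bases with a Spry1 exon. The methods name a stranded library kit, but whether reads were assigned by strand is not given in the sources used here.

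**Figure D2:**
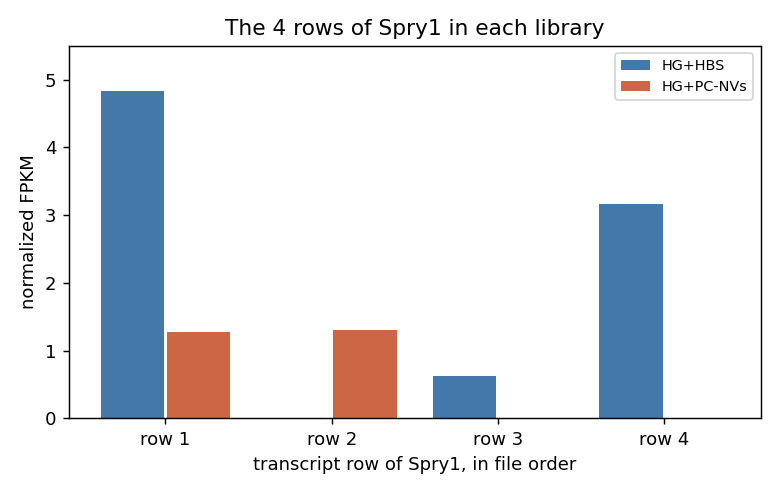
Normalized FPKM of the 4 transcript rows of Spry1, with a bar for each library. The row that is highest in HG+HBS stands at 4.83 FPKM there and at 1.28 FPKM with PC-NVs, and the second row is visible only in HG+PC-NVs, at 1.30 FPKM.

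Spry4, a Sprouty protein that acts on Ras and RAF activation, stood at 44.6 FPKM with HBS and 24.8 FPKM with PC-NVs. It was 1.80-fold lower (1.68 to 1.92), with a log2 ratio of -0.82, and ranked 179 from the lowest. Spry2, the Sprouty protein known for its binding of GRB2 and CBL, stood at 22.0 and 17.5 FPKM and was 1.26-fold lower (1.11 to 1.43). Spry1, Spry4 and Spry2 were therefore all lower with PC-NVs, in that order of size.

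Spred1, which brings neurofibromin to Ras at the membrane and is annotated on chr2:117121374-117182279 of GRCm38, was the most abundant of the 5 in both libraries, at 89.5 and 63.8 FPKM. It was 1.40-fold lower (1.35 to 1.46), a log2 ratio of -0.48. Its main row carried 87.3 and 62.0 FPKM, and its other row 2.17 and 1.78 FPKM, so both rows had the same direction. Spred2, its closest relative, stood at 37.0 and 29.2 FPKM, 1.27-fold lower (1.17 to 1.38). Summed over the 5 Sprouty and Spred genes, the level was 202 FPKM with HBS and 138 FPKM with PC-NVs.

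Dusp1, a nuclear phosphatase that acts on p38 and JNK as well as ERK and is induced by stress, cytokines and glucocorticoids, went the other way, from 15.9 FPKM with HBS to 33.1 FPKM with PC-NVs. It was 2.08-fold higher (1.85 to 2.35, about 422 and 768 fragments), with a log2 ratio of 1.01 on the log2(value + 1) scale, and ranked 276 from the highest. This lies just past the 2-fold threshold, and quantile normalization or upper-quartile scaling placed it just below, with a lowest log2 ratio of 0.98. Dusp1 is annotated on chr17:26505590-26508519 of GRCm38.

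The other nuclear phosphatases of the set were lower. Dusp5, which acts on ERK, stood at 16.6 and 11.6 FPKM, 1.43-fold lower (1.25 to 1.65), and an annotated antisense gene shares up to 547 bases with one of its exons. Dusp4, which acts on ERK and JNK, stood at 9.49 and 7.71 FPKM, 1.23-fold lower (1.04 to 1.45). Dusp1 was thus near Dusp5 in HG+HBS, with 0.958 times its level, and at 2.86 times its level in HG+PC-NVs.

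Dusp6, the cytoplasmic phosphatase specific for ERK, on chr10:99263231-99267488 of GRCm38, was the most abundant Dusp gene, at 137 FPKM with HBS and 158 FPKM with PC-NVs. It was 1.15-fold higher (1.10 to 1.19), with a log2 ratio of 0.20 as deposited and between 0.10 and 0.21 over the settings tried. The 4 Dusp genes summed to 179 FPKM with HBS, of which Dusp6 made up 76.6%, and to 210.1 FPKM with PC-NVs. All rows together summed to 521666 FPKM with HBS and 580717 FPKM with PC-NVs, and 15 housekeeping genes had a median log2 ratio of 0.15. Dusp6, widely used as a readout of ERK activity, was thus not lower as Spry4, Spred1 and Dusp5 were. The rise of Dusp6 is near the size of those offsets, so no direction of its own is read from it.

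Ier3, a short gene of 1240 bases that encodes a regulator of survival and of ERK dephosphorylation and is also induced by NF-kB, showed the largest difference of the 10. Its level was 51.5 FPKM with HBS and 274 FPKM with PC-NVs. It was 5.33-fold higher (4.93 to 5.76, about 776 and 3612 fragments), with a log2 ratio of 2.39, and ranked 50 from the highest among 11785 genes. By level among all 23183 symbols it moved from rank 1601 to rank 286. Ier3 exceeded Dusp6 in HG+PC-NVs, while it was under both Dusp6 and Spred1 in HG+HBS.

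**Figure D3:**
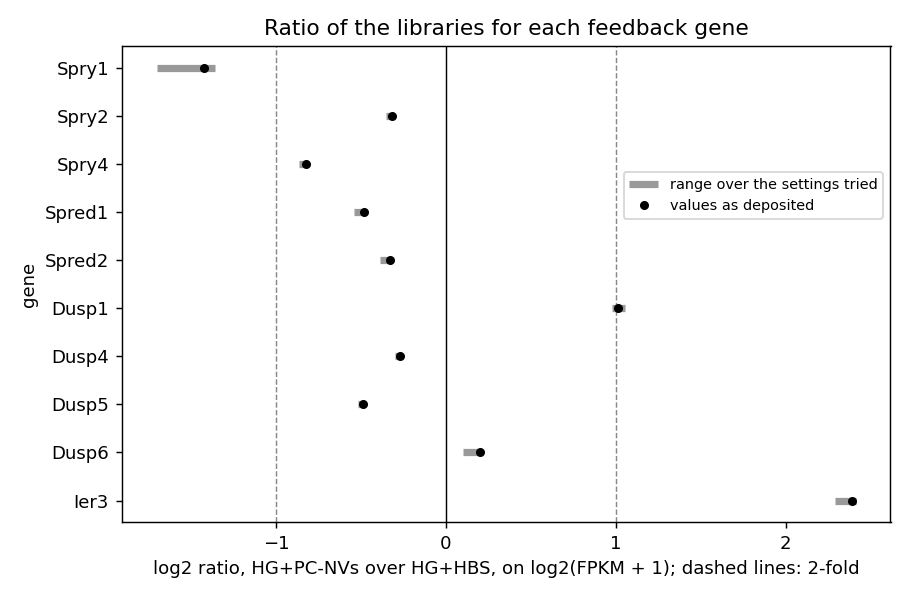
Log2 ratio of HG+PC-NVs over HG+HBS for each of the 10 genes (points) with the range over the settings tried (grey bars), and dashed lines at 2-fold. No bar crosses 0, and Dusp1 is the gene whose bar crosses a dashed line, from 0.98 to 1.05.

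In the order of levels, HG+HBS ran from Dusp6, Spred1, Ier3, Spry4, Spred2, Spry2, Dusp5, Dusp1 and Dusp4 to Spry1. HG+PC-NVs ran from Ier3, Dusp6, Spred1, Dusp1, Spred2, Spry4, Spry2, Dusp5 and Dusp4 to Spry1. Ier3 and Dusp1 moved up this order, and Spry4 moved below Spred2. Which neighbours differ beyond the spread between cultures cannot be said from 1 library each.

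**Figure D4:**
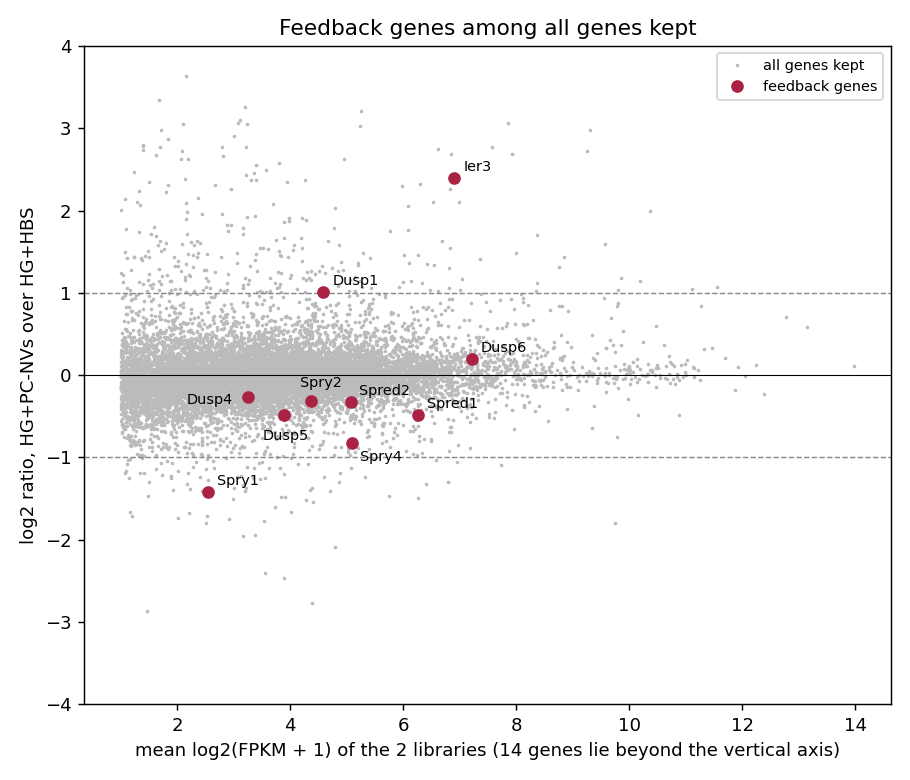
Log2 ratio of HG+PC-NVs over HG+HBS against the mean log2(FPKM + 1) for the 11785 genes kept (grey) and the 10 genes described here (red). Dashed lines mark 2-fold, and 14 genes lie beyond the vertical axis. Ier3 at 2.39 and Spry1 at -1.43 lie outside the main cloud, Dusp1 lies on the upper dashed line, and the other genes lie within the dashed lines.

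A sequence feature of the transcripts was looked at after the levels were known, the AU-rich heptamer UAUUUAU in the 3' untranslated region, a letter pattern found in many short-lived mRNAs. In the principal GENCODE M21 transcripts it occurred in 6 of the 10 genes, 4 times in Ier3, 4 in Spry4, 3 in Dusp1, 3 in Spred1, 2 in Spry1 and 2 in Spry2. It was not found in Spred2, Dusp4, Dusp5 or Dusp6. Of 20724 other protein-coding genes, 26.1% held it. The genes with the heptamer included both directions, with Ier3 and Dusp1 higher and Spry1 and Spry4 lower. The median length of the region was 1110 bases in the 10 genes and 847 in the others.

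The relatives outside the set did not share a direction. Of 12 other Sprouty, Spred and Dusp genes, 9 passed the filter on low values, 1 was at least 2-fold higher and none was at least 2-fold lower, with a median log2 ratio of 0.21. The one past 2-fold was Dusp2, a nuclear phosphatase of activated leukocytes and other cells, at 5.13 FPKM with HBS and 12.1 FPKM with PC-NVs, a log2 ratio of 1.10. Spred3, the third Spred gene, had a log2 ratio of 0.44, opposite in sign to Spred1 and Spred2, at 11.6 and 16.0 FPKM. Dusp7, the relative of Dusp6, stood at 26.0 and 21.9 FPKM. Among the phosphatases that prefer p38 and JNK, Dusp16 stood at 1.57 and 3.12 FPKM, a log2 ratio of 0.68, and Dusp10 at 4.14 and 4.08 FPKM. The atypical members Dusp3, Dusp14, Dusp22 and Dusp23 had log2 ratios of -0.14, -0.18, 0.21 and 0.59. Dusp8 and Dusp9 were below 1 FPKM in both libraries, and Spry3 was listed at 0 in both.

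The wider pathway was described with lists of its parts. Of 15 other negative regulators of Ras-ERK signalling, 14 were kept, none differed by at least 2-fold, 4 were higher and 10 lower, and the median log2 ratio was -0.07. The highest of them was Pebp1, an inhibitor of RAF, at 328 and 302 FPKM. Of 21 genes of the cascade from GRB2 to ERK and RSK, all 21 were kept, none differed by at least 2-fold, and the median log2 ratio was 0.07. Mapk3, which encodes ERK1, was the highest, at 181 and 166 FPKM. The largest log2 ratio of the cascade was 0.60, that of Map2k1, named after its values were seen, beside -0.48 for Spred1 and -0.49 for Dusp5. The 10 genes of the set were chosen partly by this contrast, so no comparison of size with the cascade is read. Of 15 genes of the p38 and JNK cascade, none differed by at least 2-fold, and the median was 0.09, with the p38 substrate kinase Mapkapk2 highest, at 69.6 and 101 FPKM.

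Upstream, of 20 growth factor ligands 19 were kept, 12 higher and 7 lower, of which 3 were at least 2-fold higher and none at least 2-fold lower, with a median log2 ratio of 0.36. The lowest ratio among them, that of Igf1, was -0.90, named after its values were seen. Ereg, which encodes the EGF receptor ligand epiregulin, stood at 34.1 FPKM with HBS and 174 FPKM with PC-NVs, a log2 ratio of 2.32. Fgf7, a ligand of the epithelial form of FGF receptor 2, stood at 86.6 and 196 FPKM, and Vegfa at 42.1 and 93.5 FPKM, with log2 ratios of 1.17 and 1.13. Of 16 receptor tyrosine kinases, 11 were kept, none differed by at least 2-fold, 8 were lower, and the median was -0.15. Pdgfra was the highest, at 149 and 129 FPKM. Fgfr1, named after its values were seen because Sprouty genes are known feedback targets of FGF receptors, stood at 94.5 and 61.1 FPKM, a log2 ratio of -0.62.

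Downstream, the ERK-induced genes also went both ways. Of 23 transcription factors and targets, 22 were kept, 15 higher and 7 lower. At least 2-fold, 2 were higher and none was lower, and the median log2 ratio was 0.25. Ets2, an ETS factor that ERK phosphorylates, stood at 8.46 and 24.6 FPKM, a log2 ratio of 1.44. Fos stood at 3.74 and 8.66 FPKM, a log2 ratio of 1.03. Ccnd1, the cyclin D1 gene and the highest of the list, stood at 143 and 91.6 FPKM, a log2 ratio of -0.63. Etv4 and Etv5, ETS factors induced by FGF together with Sprouty genes and named after their values were seen, had log2 ratios of -0.31 and -0.48. Egr1, a classical immediate-early target also named after its values were seen, stood at 24.7 and 24.8 FPKM. Junb and Fosl1, AP-1 genes named in the same way, had log2 ratios of 0.82 and 0.81. Genes commonly read as ERK output therefore had ratios of both signs in these libraries. More of them were higher than lower, beside 51.6% of all genes kept with a log2 ratio below 0. Of 15 housekeeping genes, 12 were higher and 3 lower, so nothing about ERK output is read from that count.

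**Figure D5:**
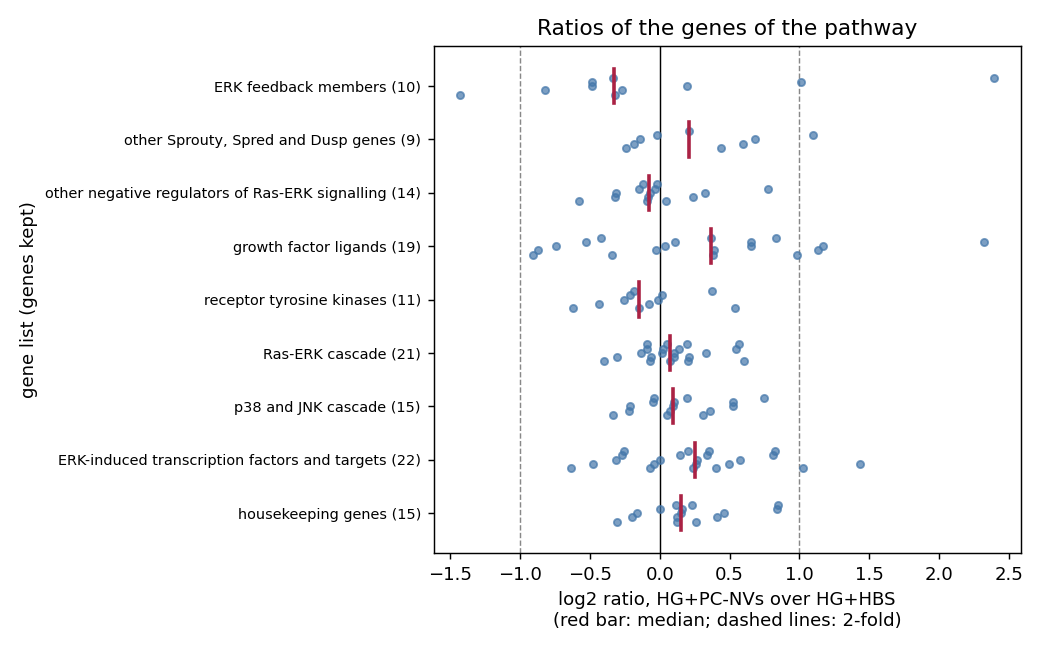
Log2 ratio of HG+PC-NVs over HG+HBS for the genes of each list that passed the filter (points; number kept in parentheses), with the median of each list as a red bar and dashed lines at 2-fold. The median of the genes of the set, Ier3 among them, is -0.32, beside 0.36 for the ligands and 0.15 for housekeeping genes. The marker lists, which are not plotted, have medians from -0.34 (endothelial) to 0.07 (myeloid).

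The values of 15 housekeeping genes had a median log2 ratio of 0.15, beside -0.01 over all genes kept, with 12 higher and 3 lower. Eef1a1 had the highest level, at 4647 and 5052 FPKM. Their log2 ratios ran from -0.31 for Tbp to 0.85 for Pgk1, both named after their values were seen. Marker lists of other cell types moved beside these results. The summed level of the 14 endothelial markers was 56.4 FPKM with HBS and 42.3 FPKM with PC-NVs. Only 4 of these markers were kept, 1 higher and 3 lower. Their median log2 ratio was -0.34, and that of the list with no filter on low values was -0.10. Of 12 pericyte and smooth muscle markers, led by Pdgfrb at 38.4 and 33.7 FPKM, 9 were kept, 3 higher and 6 lower, with a median log2 ratio of -0.20 and a sum of 122 and 96.0 FPKM, and Myh11 and Cnn1 were below 1 FPKM in both. At least 2-fold, Rgs5 and Kcnj8 were higher and Acta2 and Tagln lower, with log2 ratios of 1.61, 1.25, -1.67 and -1.13, named after their values were seen. Of 10 fibroblast markers all 10 were kept, 1 higher and 9 lower, with a median log2 ratio of -0.28. Their sum was 2206 and 2492 FPKM, which is higher with PC-NVs through Dcn alone. Of 12 myeloid markers, led by Lyz2 at 212 and 193 FPKM, all 12 were kept, 7 higher and 5 lower, with a median log2 ratio of 0.07 and a sum of 390 and 634 FPKM. Past 2-fold among them, also named after their values were seen, Adgre1, Cd14, Aif1 and Fcer1g were higher and Mrc1 lower. No marker of these lists was at 0 in both libraries. Their part in the results was not tested.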

How the data were processed

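The authors removed low-quality paired-end reads of 100 bases (under Q20) and aligned the rest to mm10 using TopHat. BEDTools and Cufflinks gave read counts and FPKM, which the authors then normalized with edgeR, by what the methods call quantile normalization. Tool versions and the annotation are not given in the sources used here. The deposited values are log2(normalized FPKM + 1) per transcript row. That scale was read from their range, up to 13.99.

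Each value was converted back and the rows of a symbol were summed. Ratios compare log2 of the summed value plus a pseudocount of 1. Genes whose mean on that scale was under 1 were left out. The deposited values were used with no further normalization, although their sorted values are more than 0.05 apart in 2318 rows. To estimate fragments, FPKM was multiplied by transcript length for 2189 genes with a single GENCODE M21 transcript over 1500 nt and more than 0.001 FPKM. The commonest low product was taken as the worth of 1 fragment and applied with each gene's principal transcript length. Counts and fragment estimates were tested on simulated data. The members and lists were chosen with earlier results of these data known. Named genes are the members, their family, pathway-list genes past 2-fold, the highest gene of each list, and markers below 1 FPKM in both libraries. A gene outside that rule is said in the text to be named after its values were seen. The deposited samples are 1 library per condition, so no test was run. Alternatives covered normalization, pseudocount, filter, rows and threshold. Scripts ran under Python 3.11.15 with pandas 2.3.3, numpy 2.4.6 and scipy 1.17.1, and plots used matplotlib 3.10.9.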

Additional observations from a re-analysis of the deposited data

How the results depend on the processing

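Of 69 alternative log2 ratios of the 10 genes, 67 moved by less than their counting error and none changed sign. Many of the 69 could not move. A changed filter leaves a ratio as it is, and only Spry1 and Spred1 have more than 1 row to choose from. The exceptions were Spred1 and Dusp6 under quantile normalization, at -0.54 and 0.10. The number of the 10 at least 2-fold higher was 1 in place of 2 with quantile normalization and with upper-quartile scaling, where Dusp1 fell just short. The number at least 2-fold lower was 0 with the low-value filter raised to a mean log2 of 3, which leaves out Spry1, and 2 with the 1.5-fold threshold, which adds Spry4. The median of the 10 moved by less than 0.147 in every alternative tried.

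Over all genes, 375 differed by at least 2-fold as deposited, 281 higher and 94 lower. With a pseudocount of 0.1, 190 were lower. With the low-value filter raised to a mean log2 of 3, 209 differed, 160 higher and 49 lower, over 7584 genes in place of 11785. With the 1.5-fold threshold, 1049 differed, 628 higher and 421 lower. Of 90 alternative medians of lists, 86 moved by less than 0.147. The exceptions were 0.21 for ligands and 0.38 for other Sprouty, Spred and Dusp genes with the highest row of each gene, -0.10 for endothelial markers without a filter, and -0.70 for pericyte and smooth muscle markers with the raised filter.

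No paired analysis was possible because each condition has a single library, which also leaves no replicate to omit. Spry1, with about 83 fragments in HG+PC-NVs, has the widest counting interval among the 10 genes.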

Other observations

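Other regulators of the pathway and its neighbours are named here after their values were seen. Socs3, the feedback inhibitor of JAK-STAT signalling, stood at 41.1 FPKM with HBS and 70.9 FPKM with PC-NVs, a log2 ratio of 0.77. Errfi1, the feedback inhibitor of EGF receptors, stood at 37.8 and 47.6 FPKM. Rasa1, a GTPase-activating protein that switches Ras off, stood at 114 and 75.8 FPKM, a log2 ratio of -0.58, so it shared the sign of Spred1 and Spred2. Map2k1, which encodes MEK1, stood at 50.3 and 76.8 FPKM, a log2 ratio of 0.60.

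Among the myeloid markers, Cd14, the co-receptor for lipopolysaccharide, stood at 36.6 FPKM with HBS and 252 FPKM with PC-NVs, and Adgre1, which encodes the macrophage antigen F4/80, at 7.44 and 42.5 FPKM. Their log2 ratios were 2.75 and 2.37, the highest of the 12 markers, of which 7 were higher and 5 lower, with a median of 0.07. Cd68, Csf1r and Ctss, also named after their values were seen, had log2 ratios of -0.44, -0.38 and -0.29. Aif1 and Fcer1g had log2 ratios of 1.82 and 1.09, and Mrc1 one of -1.07. Lyz2, the most abundant marker of the list, was at 212 and 193 FPKM. The part of myeloid cells in the level of Ier3 or Dusp1 was not tested.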
